A study of Mus musculus with 3 samples.

Results

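The cells described here are the LP4 cells that a mitochondrial limit removed. In the library of bone marrow-derived macrophages (BMDMs) exposed to borrelial lipoproteins (BbLP) for 4 hours, 5039 barcodes were deposited, and 4943 of them had more than 500 unique molecular identifiers (UMIs, 1 per captured transcript) and more than 500 genes. Of those 4943 cells, 273 had 5% or more of their UMIs in the 13 genes of the mitochondrial genome (symbols starting mt-) and 4670 had less. The 273 cells are called cells over the limit and the 4670 cells under the limit. They are 5.42% of the LP4 barcodes (exact binomial 95% interval 4.81 to 6.08) and 5.52% of the cells that passed the other limits (4.90 to 6.20). Over the 3 libraries of the series, 16140 of 16281 barcodes met both of these minima. The study left the cells over the limit out of its own analysis. In all libraries 15806 cells lay under the limit. The study states a smaller total of cells kept, and the steps that removed the others are not given in the sources used here.

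The BMDMs came from C3H/HeN female mice of 6 to 8 weeks. They received PBS (Ctrl, labelled as untreated), 1 µg/mL of BbLP for 1 hour (LP1) or 1 µg/mL for 4 hours (LP4), and Ctrl was collected at 4 hours. The BbLP fraction was prepared from Borrelia burgdorferi, the spirochete of Lyme disease, by detergent partitioning. The study states that BMDMs of 3 mice were treated separately and that the 3 wells were combined for each capture. Cells of different mice cannot be told apart within a library. Each condition is therefore 1 library without a replicate, and all intervals given are exact 95% intervals that cover counting error only. No test between conditions or between groups of cells was made.

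A cell's mitochondria carry their own small genome, which encodes subunits of the respiratory chain and the ATP synthase. Most of its protein-coding transcripts are polyadenylated and captured together with those of the nucleus. A high share of such transcripts in single-cell data is commonly used as a sign of a damaged cell whose cytoplasmic RNA has leaked, but the share also differs between healthy cells with their content of mitochondria and of other RNA. BbLP are recognised by the Toll-like receptor 2 of macrophages, which signals through MyD88 and NF-kB and induces cytokines, chemokines and, through interferon, antiviral genes.

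Because the limit was set on mt- UMIs, their share is described first and without any test. Among the 273 cells it ran from 5.00% to 29.3% with a median of 5.41% and quartiles of 5.20% and 5.99%. Most of the cells sat close to the limit. 205 cells had 5 to 6%, 54 had 6 to 8%, and 14 had 8% or more. The cell just inside the limit had 5.00% (1330 of 26590 UMIs) and the next 5.01% (492 of 9827). The cell just outside had 4.9987% (965 of 19305) and the next 4.99675% (1000 of 20013). A further 860 LP4 cells had 4 to 5%, which is 17.4% of the cells that passed. The 2 highest shares, 29.3% and 19.7%, belonged to cells of 1196 and 1490 UMIs.

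The same limit removed 18 of 6089 Ctrl cells (0.296%, 0.175 to 0.467) and 43 of 5108 LP1 cells (0.842%, 0.610 to 1.13). Over all cells that passed, Ctrl had a median share of 1.97%, LP1 one of 2.85% and LP4 one of 3.23%, so the middle of the LP4 cells lay nearest to the limit. With 1 library per condition, the treatment and the library cannot be told apart.

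**Figure D1:**
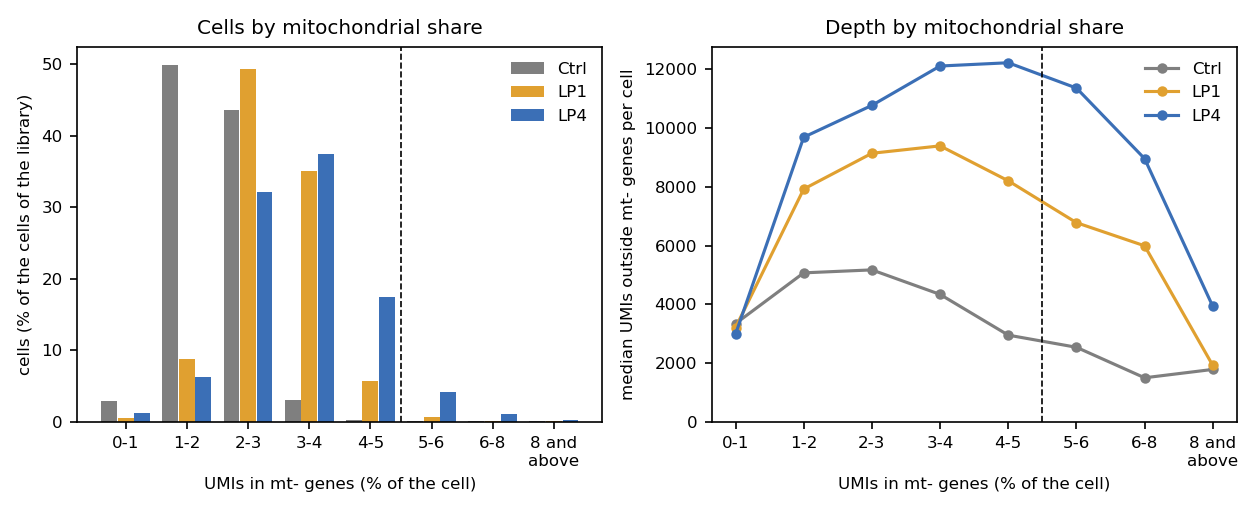
Left, percent of the cells of each library in classes of the share of UMIs in mt- genes. Right, median UMIs outside mt- genes per cell in the same classes. The dashed line is the 5% limit. LP4 had 17.4% of its cells at 4 to 5% and 4.15% at 5 to 6%, and its median depth was 11363 UMIs at 5 to 6% and 8957.5 at 6 to 8%.

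The cells over the limit were not shallow as a group. They held a median of 10290 UMIs outside mt- genes per cell (quartiles 7165 and 14297), against 11393 (8471 and 15744) in the cells under the limit. The interval of the first median, from the ranks of the 273 cells, was 9598 to 11363. Genes per cell had medians of 3266 and 3280. The mt- UMIs themselves had medians of 627 and 367 per cell. Of the 273 cells, 44.0% were deeper than the median of all LP4 cells that passed. When all cells were split by UMIs outside mt- genes into 10 classes of equal size, the share over the limit was highest in the 2 shallowest, at 8.89% (6.53 to 11.7) and 7.89% (5.67 to 10.6). It was between 3.64% and 6.48% in the other classes and 3.84% (2.33 to 5.93) in the deepest.

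Depth differed within the group. Cells at 5 to 6% had a median of 11363 UMIs outside mt- genes, those at 6 to 8% had 8957.5, and the 14 cells at 8% or more had 3925.5 UMIs and 1707 genes. Across the 273 cells, the Spearman correlation of the mt- share with UMIs outside mt- genes was -0.29, and across all 4943 cells that passed it was 0.14. Both describe cells of 1 library, and UMIs enter both quantities. In the other libraries the removed cells were shallower than the rest. Their median UMIs outside mt- genes were 1832 against 5036 in Ctrl and 6133 against 9075 in LP1.

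The mix of mt- transcripts was similar on both sides of the limit, with the same 4 genes making up most of it. mt-Co3, which encodes a subunit of cytochrome c oxidase, made 21.6% of mt- UMIs over the limit and 21.9% under it. mt-Co1, the catalytic subunit of that complex, made 17.7% and 20.2%, mt-Atp6 of the ATP synthase 16.6% and 17.1%, and mt-Co2 16.5% and 16.9%. The complex I subunit mt-Nd1 made 8.91% (8.77 to 9.04) and 7.45% (7.42 to 7.49), and mt-Nd2 made 5.07% and 4.12%. mt-Nd6, the transcript encoded on the other strand of the mitochondrial genome, had 0.989 UMIs per cell over the limit and 1.07 under it, so it was the only mt- gene without more UMIs per cell over the limit.

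For all other genes, UMIs were summed over the cells of each side and divided by the sum without mt- genes, 3124315 UMIs over the limit and 59399087 under it. The values are given per 1000000 UMIs (CPM). A difference is the log2 ratio of the CPM over the limit to that under it. 7392 genes had at least 10 CPM over both sides together. Of these, 7 were at least 2-fold higher over the limit (0.0947% of the genes counted) and 23 at least 2-fold lower (0.311%). At 1.5-fold, 167 were higher (2.26%) and 106 lower (1.43%). The ratios of 96.3% of the genes lay within 1.5-fold, their median was 0.04 and their standard deviation 0.30. Of the 7392 genes, 4290 lay above 0 and 3102 below it, which is the base for the counts of list members below. Scaling by TMM or by the median of ratios gave 2 genes higher and 30 lower at 2-fold. It placed the median of all genes at -0.05 and -0.06, a shift of about 0.10 that applies to every ratio below. Adding the 273 cells to the LP4 sums would move the log2 level of Mmp9 most, by 0.10, and the median move over genes was 0.0079.

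**Figure D2:**
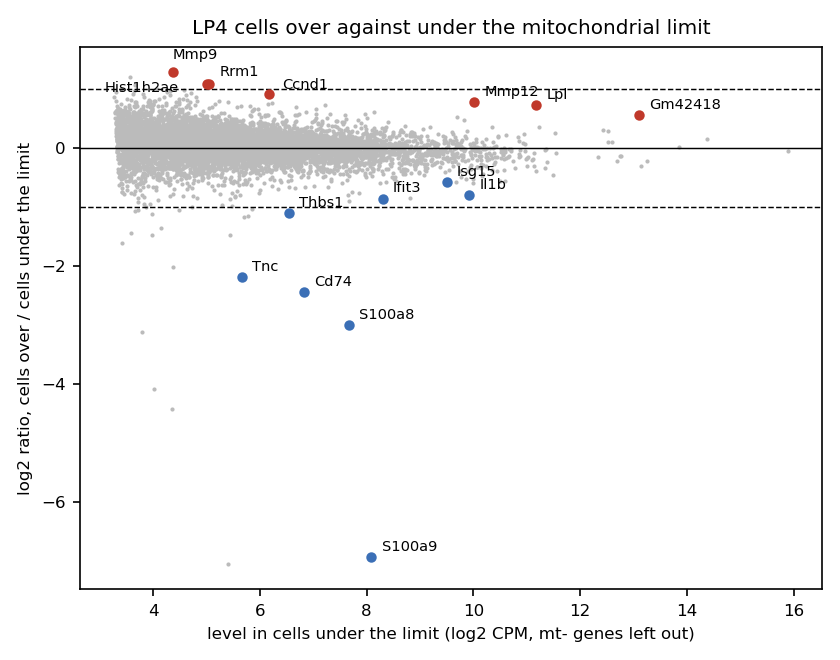
Each point is 1 of the 7392 genes, with its log2 CPM in LP4 cells under the limit on the x axis and the log2 ratio of cells over to cells under the limit on the y axis. Dashed lines mark 2-fold, named genes are in red (higher over the limit) or blue (lower), and 1 unnamed gene without a UMI over the limit is drawn at the bound from 3 UMIs. The abundant genes Lpl and Mmp12 sit above 0, and S100a9 sits lowest of the named genes, at -6.93.

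Among the 12 genes named for the highest ratios were genes of DNA replication, of the matrix and of lipid handling. The 50 CPM needed for naming could be met on the higher side alone. Mmp9, Scd2, Rrm1, Hist1h2ae, Dtymk, Smc2 and Cbx3 met it only over the limit, so no common theme is read from the 12. With at least 50 CPM over both sides together, 0 genes were 2-fold higher. Mmp9, a gelatinase that cleaves collagen (chr2:164940780-164955850, GRCm38), had 50.9 CPM over the limit and 20.6 under it, a log2 ratio of 1.30 (1.05 to 1.54), and 18.9% of its 159 UMIs over the limit came from 1 cell. Rrm1, the large subunit of ribonucleotide reductase (chr7:102441695-102469771), had 68.5 and 32.1 CPM, a ratio of 1.09 (0.88 to 1.30). The core histone gene Hist1h2ae had 70.4 and 33.1 CPM (1.09, 0.88 to 1.29). Ccnd1, cyclin D1 of the G1 phase, had 138 and 72.5 CPM (0.93, 0.78 to 1.07). The thymidylate kinase Dtymk (0.80), the condensin subunit Smc2 (0.79) and Stmn1, which destabilises microtubules (0.76), also belonged to the 12, as did the integrin gene Itgax (0.75), the heterochromatin protein gene Cbx3 (0.75) and the desaturase gene Scd2 (0.94).

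The 12 also held 2 abundant genes, Lpl and Mmp12. Lpl, the lipoprotein lipase that releases fatty acids from triglycerides, had 3862 CPM over the limit and 2328 under it, a ratio of 0.73 (0.70 to 0.76). Mmp12, the macrophage elastase, had 1771 and 1031 CPM, a ratio of 0.78 (0.74 to 0.82). Among genes with clone names, Gm42418 had 12964 and 8786 CPM (0.56, 0.55 to 0.58) and Gm47507 had 51.2 and 28.1 (0.87). The locus of Gm42418 overlaps ribosomal RNA sequence, and UMIs of the transcript and of ribosomal RNA cannot be told apart.

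S phase genes were higher as a list. All 10 of its 15 members that had 10 CPM lay above 0, with a median of 0.59 against 0.04 for all genes counted, and 5 of them were at least 1.5-fold higher, against 2.26% of all genes counted. The list summed to 698 CPM over the limit and 473 under it (0.56, 0.50 to 0.62). Beside Rrm1, its small partner Rrm2 had 27.2 and 11.8 CPM (1.20, 0.86 to 1.53), the helicase subunit Mcm6 had 83.9 and 56.4 (0.57, 0.38 to 0.75), and the sliding clamp Pcna had 304 and 238 (0.35, 0.26 to 0.45). The markers of cycling cells had a median of 0.67, with Top2a, the topoisomerase of dividing cells, at 94.7 and 59.6 CPM (0.67), but Mki67 at 303 and 309 CPM (-0.03). They summed to 634 and 527 CPM (0.26, 0.20 to 0.33). Within clusters the cycling list was higher in 4 and lower in 2 of 6, with a median of 0.04. Replication-dependent histones summed to 862 and 658 CPM (0.39), and 3 of the 10 counted were at least 1.5-fold higher, against the same 2.26%. Within clusters the histone list was higher in 3 and lower in 3 of 6.

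To show what the S phase promoters hold, RefSeq windows of 250 bases before and 50 bases after the start (GRCm38.p6) were searched on both strands for the E2F letters TTTCCCGC, TTTGGCGC, TTTGCCGC and TTTCGCGC, with overlapping matches allowed. E2F factors drive the genes of replication. Of 13 S phase genes matched, 7 held such letters (53.8%), against 2.605% of 27025 genes with a window. Rrm1, Rrm2 and Pcna did not hold them in this window. Stretches of 30 bases are shown for 3 helicase genes, since these were higher over the limit and held the letters. They run 5′ to 3′ on the gene's strand, with the matching letters, or their reverse complement, in capitals. Mcm3 had 39.4 CPM over the limit and 20.1 under it (0.97, 0.69 to 1.24), and Hells 18.9 and 9.33 (1.02, 0.61 to 1.41), the latter under the 10 CPM of the genes counted.
Mcm6, chr1:128359734-128359763, minus strand: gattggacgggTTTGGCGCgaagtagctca
Mcm3, chr1:20820275-20820304, minus strand: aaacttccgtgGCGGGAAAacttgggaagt
Hells, chr19:38930917-38930946, plus strand: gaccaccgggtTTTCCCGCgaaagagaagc
A match is a description of the letters and no evidence of binding.

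A further 3 lists were built around Fgf13, Lgals3 and Apoe, part of whose genes the study uses as markers of BMDM subsets in these samples. The grouping and the other members were chosen here with results known, so their direction is not independent evidence. The Fgf13 subset genes were higher, 7 of 7 above 0 with a median of 0.36, and summed to 11607 CPM over the limit and 8598 under it. Within it, Fgf13 itself was at 0.36 with an interval of 0.20 to 0.52. Of the Lgals3 subset genes 8 of 9 lay above 0 with a median of 0.34, among them Ctsk, the collagen-degrading cathepsin K, at 0.52, while the abundant Lgals3 was at -0.13. All 10 counted genes of the Apoe subset lay below 0, with a median of -0.40 and sums of 1302 and 1752 CPM. Apoe, the lipid carrier, had a ratio of -0.44 and Ms4a7 one of -0.55.

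Genes induced through interferon were lower over the limit, most of them by less than 1.5-fold. Of 32 counted, 30 lay below 0, with a median of -0.27, and the list summed to 16306 CPM over the limit and 19282 under it (-0.24, -0.25 to -0.23). Ifit3, an RNA-binding antiviral protein, had 175 and 315 CPM (-0.85, -0.97 to -0.73) and was the only member at least 1.5-fold lower. The GTPase gene Gbp2 had 203 and 304 CPM (-0.58, -0.70 to -0.47), the ubiquitin-like Isg15 had 489 and 724 (-0.57, -0.64 to -0.49), and Ifi204 had 342 and 454 (-0.41). Ifit1 had 1681 and 2066 CPM (-0.30, -0.34 to -0.26), Cxcl10 735 and 953 (-0.38), and the abundant Rsad2, viperin, 4659 and 5163 (-0.15). Irf9, which carries the interferon signal to these genes, lay above 0, at 0.27 (0.01 to 0.52).

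The interferon-stimulated response element was searched in the same windows as GAAA, any 2 bases and GAAA again, on both strands and with overlaps allowed. Of 28 genes of the list matched, 16 held it (57.1%), against 3.99% of all genes with a window. Stretches of 3 of the genes with the lowest ratios given above are shown, with the match in capitals on either strand.
Ifit3, chr19:34583363-34583392, plus strand: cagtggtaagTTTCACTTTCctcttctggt
Isg15, chr4:156200871-156200900, minus strand: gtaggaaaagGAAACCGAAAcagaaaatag
Gbp2, chr3:142620594-142620623, plus strand: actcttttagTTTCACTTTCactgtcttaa
Genes that hold the letters and genes that do not were both found below 0. Rsad2, with a match, was at -0.15, and Ifit2, without one, at -0.32.

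Most inflammatory genes lay lower as well. Of 15 counted cytokines 12 were below 0, against 3102 of all 7392 genes counted, and their median was -0.48. Il1b, the interleukin released by the inflammasome, had 563 and 971 CPM (-0.79, -0.86 to -0.72), Tnfsf15 had a ratio of -1.14, and Il15 had 696 and 806 (-0.21). All 15 counted genes of NF-kB subunits and their feedback inhibitors lay below 0, with a median of -0.19. The inflammasome list had a median of -0.18 and summed to 1949 and 2586 CPM (-0.41). This sum includes Il1b, which made up 1760 of the list's 6089 UMIs over the limit and 57698 of 153631 under it. Nlrp3, the inflammasome sensor, had 179 and 203 CPM (-0.18), and Pycard, the adaptor, lay above 0 with an interval of 0.24 to 0.59. Nos2, the inducible nitric oxide synthase, had 151 and 197 CPM (-0.38), and the mitochondrial superoxide dismutase Sod2 had 627 and 876 (-0.48, -0.55 to -0.42). Of 16 counted chemokines 12 lay below 0, with a median of -0.13 and sums of 9496 and 11438 CPM (-0.27, -0.29 to -0.25). Cxcl3 had 463 and 526 CPM (-0.18), while Ccl5 had 390 and 343 (0.19). Ccl2 (0.27), Ccl7 (0.52) and Cxcl14 (0.70) were higher over the limit too, and Cxcl14 was the only chemokine counted that passed 1.5-fold.

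Ifit1, Isg15, Cxcl10, Rsad2, Cd274 and Nos2 were above the Ctrl level in the cells over the limit too. LP4 and Ctrl are 1 library each, so treatment and library cannot be told apart in these ratios. Both sides were set against the 6071 Ctrl cells under the limit, so they share their control. Ifit1 had 40.2 CPM in Ctrl, and its log2 ratio to Ctrl was 5.39 over the limit and 5.68 under it. Isg15 gave 2.80 and 3.37, Cxcl10 5.17 and 5.54, Rsad2 5.14 and 5.29, Cd274 2.50 and 2.62, and Nos2 8.56 and 8.94. Ifit3, at 1.53 and 2.38, and Il1b, at 0.50 and 1.28, differed most of these between the sides. Fos, an immediate early gene, gave -4.45 and -4.84. Ccnd1, at 0.37 and -0.56, and Rrm1, at 0.78 and -0.31, were above the Ctrl level over the limit and below it under the limit. Lpl was above Ctrl on both sides, at 0.86 and 0.13. Ccnd1, Rrm1 and Lpl are among the 12 genes named for the highest ratios, so their gap between the sides repeats that selection.

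Nuclear gene lists of the respiratory chain, ATP synthase and mitochondrial ribosome differed little, although the cells were chosen by mitochondrial transcripts. The TCA cycle and fatty acid oxidation list had a median of 0.09. Some single nuclear genes for mitochondrial proteins differed more, among them Idh2 (0.55) and Sod2 (-0.48). The 37 counted subunits of complex I had a median of 0.05, those of complexes II to IV 0.00, those of the ATP synthase 0.08 and the mitochondrial ribosome 0.12, against 0.04 for all genes. The medians of complex I and the ATP synthase lay below 0 under TMM and median-of-ratios scaling. The mitochondrial chaperones and proteases had a median of 0.24 and summed to 817 and 674 CPM (0.28, 0.22 to 0.34), led by the folding chamber genes Hspd1 (154 and 103 CPM, 0.57) and Hspe1 (90.9 and 67.0, 0.44). The mitophagy kinase Pink1 had 25.3 and 31.8 CPM (-0.33, -0.67 to -0.01). Glycolysis genes had a median of 0.17, with Tpi1 at 0.45 but the hexokinase Hk2 at -0.36.

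The mitochondrial chaperones and proteases above, which form a stress list, had a median of 0.24. Hypoxia genes had one of 0.01 and antioxidant genes one of 0.06. The other lists of stress and cell death had medians below 0. The integrated stress and unfolded protein response list had a median of -0.05, heat shock genes -0.01, and p53 targets and apoptosis genes -0.04. Necroptosis and TNF death signaling genes had one of -0.17, and so had immediate early genes. Cytosolic ribosomal protein genes summed to 83598 and 84281 CPM, a ratio of -0.01. The list of RNAs retained in the nucleus summed to 20726 and 17153 CPM (0.27), but Malat1 (-0.13) and Neat1 (-0.22) in it were lower over the limit, and Gm42418 carried the sum.

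The 14 cells at 8% or more differed from the rest of the group. Gm42418 had 47511 CPM in them, against 17841 at 6 to 8%, 11193 at 5 to 6% and 8688 at 4 to 5%. 5 of the 14 belonged to the small cluster G described below. Their sums hold 61123 UMIs only, so differences in most single genes were not detectable at this depth. The cells at 5 to 6% carried 2564912 of the 3124315 UMIs over the limit and set nearly all values given above.

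Levels differed between classes of mt- share on both sides of the limit. In classes of 1 to 2, 2 to 3, 3 to 4, 4 to 5, 5 to 6 and 6 to 8%, Lpl had 1312, 1700, 2535, 3240, 3845 and 3930 CPM. Ccnd1 had 26.1, 44.5, 83.5, 110, 143 and 108 CPM in the same classes. Isg15 had 896, 829, 678, 604, 508 and 429 CPM, the reverse order. The S phase list had 300, 377, 507, 608, 718 and 618 CPM, so it was highest at 5 to 6%. These classes come from 1 library, and their cells differ in depth, as shown by the plot of depth by mitochondrial share.

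**Figure D3:**
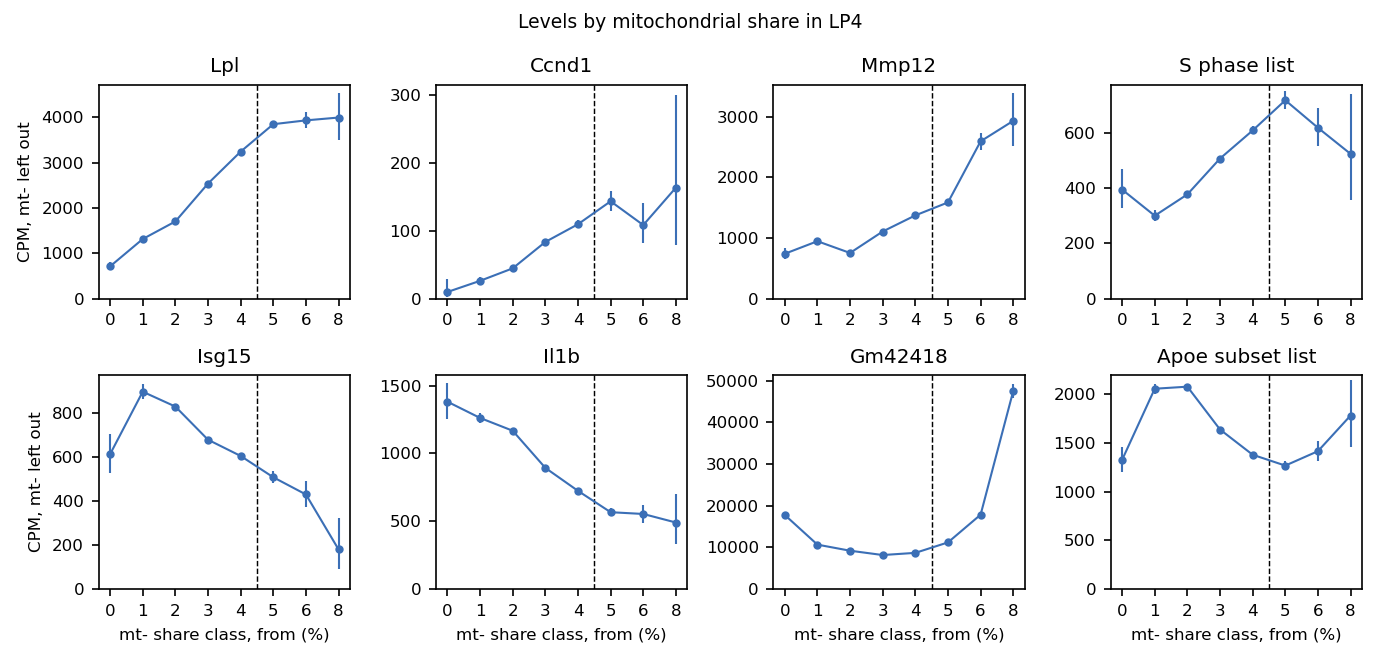
Level (CPM without mt- genes) of 6 genes and 2 lists in LP4 cells by class of mt- share, from 0 to 1% at the left to 8% and above at the right, with exact 95% intervals. The dashed line is the 5% limit. Lpl was 1312 CPM at 1 to 2% and 3845 CPM at 5 to 6%, Isg15 went from 896 to 508 CPM, and Gm42418 reached 47511 CPM in the highest class.

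Cells were then clustered without mt- genes. At a resolution of 0.5, clusters A to F held 266 of the 273 cells over the limit. In each of the 6, at least 8 of 10 macrophage markers were seen in most cells, but none of these was among the 10 leading genes. Cluster B was led in part by H2-Aa and Cd74, which are also dendritic cell markers, so clusters are given by letter. At a resolution of 0.8, a cluster of 821 cells was labelled dendritic cell-like from 3 leading genes, H2-Aa, H2-Ab1 and Cd74. The 7 dendritic cell markers outside the MHC class II list had 47 UMIs in its 810 cells under the limit (5.46 CPM) and 0 in those over it. Of the 10 macrophage markers, 9 were seen in at least 50% of its cells, so the label rests on MHC class II genes alone. This cluster held 11 of the cells over the limit (1.34%, 0.67 to 2.38). Cluster G (62 cells, left unnamed because its cells had a median of 1448 UMIs and none of its 10 leading genes was a marker) held 7. The 29 neutrophil-like cells of cluster H and the 7 stromal-like cells of cluster I held none, which allows shares of up to 11.9% and 41.0%. All 10 macrophage markers were counted, with 4 ratios above 0, among them Mertk (0.20), 6 below 0 and a median of -0.04. Lyz2 had 7350 and 9010 CPM (-0.29), Csf1r, the receptor for the growth factor of macrophages, had 380 and 435 (-0.20), and Cd14 had 987 and 1446 (-0.55). Markers of B cells, T and NK cells, mast cells and red cells summed to at most 5 UMIs per list over the limit.

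The share over the limit differed between clusters. It was 11.3% (4.66 to 21.9) in G, 10.3% (6.80 to 14.9) in F, led by histone and mitosis genes, 7.76% (6.42 to 9.27) in A, led by genes that include Ccnd1, Fgf13 and Lpl, 7.16% (5.06 to 9.77) in E and 6.56% (4.59 to 9.05) in D. It was 2.57% (1.76 to 3.60) in B, led by Gbp4 and MHC class II genes, and 3.10% (2.07 to 4.45) in C. Cluster A held 40.7% of the cells over the limit and 28.3% of those under it, and B held 11.7% and 26.02%. Genes that lead these clusters also differ between the sides, so both are views of the same cells.

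Of the 12 genes named for the lowest ratios, the 2 lowest were neutrophil genes, whose UMIs were mostly in the neutrophil-like cells. S100a9, a calcium-binding protein of neutrophils, had 2.24 and 273 CPM, a ratio of -6.93 on 7 UMIs, and S100a8 had 25.6 and 204 (-2.99). Of all S100a9 UMIs in LP4, 99.1% were in the 29 neutrophil-like cells, and for S100a8 the figure was 86.8%. With clusters A to F alone S100a9 had 2.25 and 2.38 CPM and S100a8 25.4 and 25.9. Of the 23 genes at least 2-fold lower, 15 remained, and all 7 at least 2-fold higher remained. Without the dendritic cell-like cluster of the finer resolution, 2 of the 7 and 14 of the 23 remained.

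MHC class II genes were lower over the limit within clusters A to F too. Cd74, the invariant chain of MHC class II, had 21.1 CPM over the limit and 114 under it (-2.43, -2.80 to -2.08), and with clusters A to F alone it had 20.9 and 115 CPM. Without the dendritic cell-like cluster it had 18.6 and 57.4 CPM (-1.63). H2-Aa, an MHC class II chain, had 3 UMIs over the limit and 1218 under it. The list summed to 52.5 and 193 CPM (-1.88, -2.11 to -1.66), and to 49.4 and 102 CPM (-1.05, -1.30 to -0.82) without that cluster. Within clusters the list was lower over the limit in 6 of 6, from -2.70 in E to -0.02 in D. In C it was at -0.63 on 16 UMIs, with an interval of -1.45 to 0.07. In B, where it was highest under the limit, it had 66.1 and 410 CPM. Cd74 alone was lower in 5 and higher in 1 of the 6 clusters, the latter at 0.57. The dendritic cell list shares 5 of its 12 genes with this list. Its other 7 genes, among them Flt3 and Zbtb46, had 9 UMIs over the limit and 182 under it, 2.88 and 3.06 CPM. The 14 cells at 8% or more had 245 CPM of this list on 15 UMIs. Tnc, tenascin C of the matrix, had 11.2 and 50.8 CPM (-2.18), but 37.1% of its UMIs over the limit came from 1 cell. Thbs1, thrombospondin, had 43.5 and 93.0 CPM (-1.10), and -0.82 with clusters A to F alone. Of its UMIs over the limit, 27.9% came from 1 cell, and within clusters it was lower in 4 and higher in 2 of 6. Stromal markers summed to 0.640 and 21.9 CPM, and to 0.642 and 1.21 in clusters A to F alone. Ifitm1 (-1.16), Ms4a6b (-1.03), Ifit1bl1 (-1.08), AW112010 (-0.90) and Errfi1, an inhibitor of growth factor receptors (-0.84), made up the 12 lowest named.

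Within the 6 clusters with at least 20 cells over the limit, some differences held their direction and others did not. Lpl was higher over the limit in 6 of 6 clusters, from 0.28 in A to 1.06 in B. Gm42418 was higher in 6 of 6, from 0.39 to 0.80. Ccnd1 was higher in 6 of 6, from 0.53 to 2.06, the last on 3 UMIs in C. Ifit3 was lower in 6 of 6 (-1.60 to -0.33), as were Isg15 (-0.57 to -0.13), Gbp2 (-0.55 to -0.23) and Sod2 (-0.56 to -0.24). The summed interferon list was lower in 5 of 6 and at 0.00 in C. The S phase list was higher in 5 of 6, with 1791 and 1412 CPM in F (0.34, 0.23 to 0.46) and a ratio of -0.01 in C. Dtymk was higher in 3 and lower in 3 of the clusters, with a median of 0.10, and Stmn1 was higher in 4 and lower in 2. Rrm1 and Smc2 were each higher in 5 and lower in 1, and the lowest ratio of Rrm1 was -0.90. The Apoe subset list was lower in 5 of 6 and higher in C (0.69). The Lgals3 subset list was higher in 3 and lower in 3, with a median of -0.01. Ifit1 (0.25), Rsad2 (0.26) and Il1b (0.10) were higher over the limit in C and lower in the other 5 clusters. Mmp12 was lower in C (-1.10) and Mmp9 lower in F (-2.36, on 1 UMI), and each was higher in the other 5. Without the dendritic cell-like cluster, Lpl had a ratio of 0.59, Ifit3 one of -0.59, the summed S phase list one of 0.46 and the interferon list one of -0.17. Median ratios over clusters were smaller than those over all cells, 0.28 for the S phase list against 0.56 and -0.16 for the interferon list against -0.24.

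**Figure D4:**
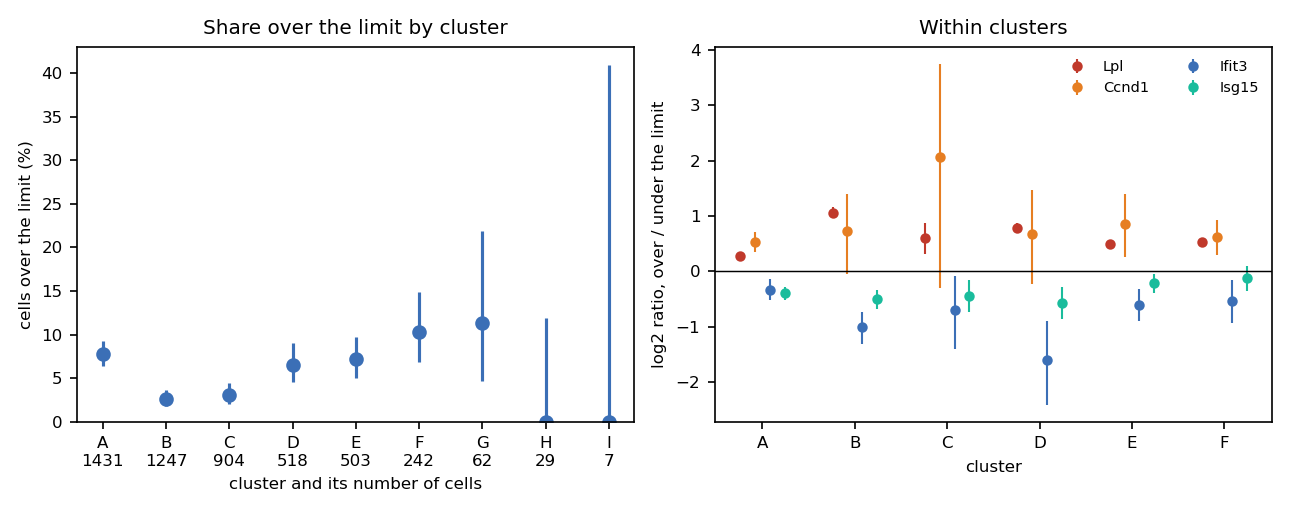
Left, percent of cells over the limit in each LP4 cluster with exact 95% intervals and the number of cells under each letter. Right, log2 ratio of cells over to cells under the limit within clusters A to F for 4 genes, with 95% counting intervals. The share was 10.3% in F and 2.57% in B, and Lpl sat above 0 and Ifit3 below 0 in all 6 clusters.

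Shares of cells with a UMI were compared after each cell was thinned to 2000 UMIs outside mt- genes, which left 266 cells over and 4625 under the limit, with median depths of 10525 and 11473 before thinning. 7 and 45 shallower cells were left out. Lpl was seen in 90.6% (86.4 to 93.8) of cells over the limit and 72.6% (71.3 to 73.9) of those under it, Mmp12 in 56.8% and 37.4%, and Ccnd1 in 18.0% and 10.1%. Rrm1 was seen in 9.77% and 4.95%. Isg15 was seen in 55.6% (49.4 to 61.7) and 67.8% (66.4 to 69.2), Ifit3 in 21.4% and 35.3%, and Il1b in 39.8% and 50.5%. Ifit1 was seen in 85.7% (80.9 to 89.7) and 86.2% (85.1 to 87.1). Without thinning, the shares over and under the limit were 95.2% and 84.4% for Lpl, 71.4% and 55.9% for Mmp12, 52.4% and 29.98% for Ccnd1, 32.6% and 20.1% for Rrm1, 90.5% and 95.7% for Isg15, 57.5% and 68.95% for Ifit3, and 56.8% and 67.9% for Il1b. In the 29 neutrophil-like cells, of median depth 9198, thinned shares were 3.45% for Lpl, Mmp12 and Ifit1, 24.1% for Isg15, 13.8% for Rrm1 and 44.8% for Il1b. Each 3.45% stands for 1 of 29 cells (0.09 to 17.8) in 1 random draw. For Ifit1, thinning to 1000 UMIs gave 4 of 29 (13.8%) and no thinning 10 of 29 (34.5%). Ccnd1 and Ifit3 were seen in 0 of 29, which allows a share of up to 11.9%. For Rrm1 (3.89 to 31.7) and Il1b (26.4 to 64.3) the intervals of the neutrophil-like cells held the shares of both sides. Top2a was seen in 34.5% of these 29 cells, so they are no reference without replication genes. They cannot decide whether the 2 sides differ in Rrm1 or Il1b, and no difference is read from that comparison.

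The cells over the limit of the other libraries had only part of this profile. They number 18 in Ctrl and 43 in LP1, and their sums are small, with 595 UMIs of the macrophage list in Ctrl. MHC class II genes were higher over the limit in LP1 (1.56, 1.33 to 1.79) and had 1 UMI in Ctrl. The S phase list had a ratio of -0.17 (-0.42 to 0.06) in LP1 and -1.42 (-2.87 to -0.30) in Ctrl on 6 UMIs. The Fgf13 subset list was -0.24 in LP1 and 0.03 in Ctrl, and the Apoe subset list 0.54 and 0.13. Lpl was -0.24 (-0.35 to -0.12) in LP1 and 0.73 (0.46 to 0.99) in Ctrl. Mmp12 was 0.08 (-0.11 to 0.26) in LP1 and 1.09 (0.61 to 1.54) in Ctrl, and Gm42418 was 0.33 and 1.25. Itgax was 0.06 in LP1 and 2.18 in Ctrl, the latter on 13 UMIs. Ccnd1 was -0.42 and -1.88, the latter on 1 UMI. The nuclear retained list summed to ratios above 0 in every library, 0.21 in LP1, 1.16 in Ctrl and 0.27 in LP4. Over the limit, Gm42418 made up 7625 of its 10068 UMIs in LP1, 1807 of 2546 in Ctrl and 40504 of 64754 in LP4. Malat1 was -0.14 in LP1, 1.03 in Ctrl and -0.13 in LP4, and Neat1 was -0.32, 0.77 and -0.22. The interferon list was below 0 in every library, -0.34 in LP1, -0.85 in Ctrl on 35 UMIs and -0.24 in LP4. Differences between libraries were not tested.

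**Figure D5:**
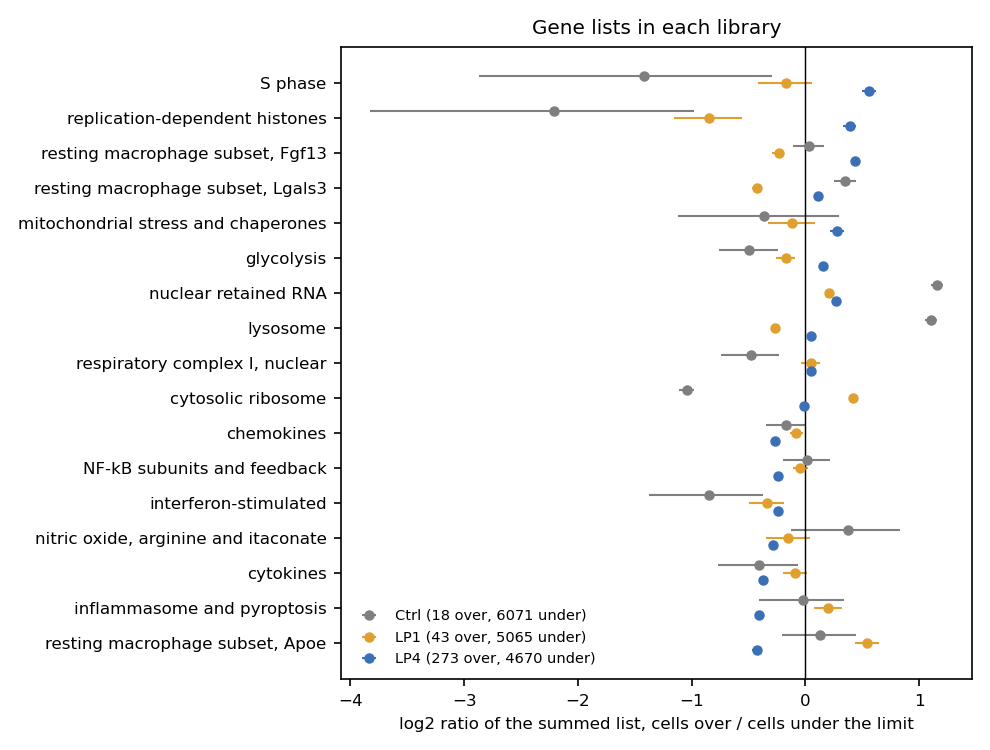
Log2 ratio of the summed list in cells over to cells under the limit, for 17 gene lists in Ctrl (grey), LP1 (orange) and LP4 (blue), with exact 95% counting intervals. In LP4 the S phase list was 0.56 and the Apoe subset list -0.43, and in LP1 they were -0.17 and 0.54.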

How the data were processed

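Single BMDMs were profiled by droplet-based RNA sequencing in 1 library per condition. Counts come from Cell Ranger, version 7.1.0 according to the submitters' processing notes, run by the authors on mm10. They deposited raw UMI counts for each gene in each barcode. Whether introns were counted is not given in the sources used here. The members and the gene lists were chosen with earlier results of these data known.

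The limits on UMIs and genes (more than 500 each) and on mt- UMIs (5%) were applied to every barcode. Ctrl held 35749924 UMIs in all, LP1 52773906 and LP4 64787139. UMIs were summed per side and scaled to CPM without mt- genes. Log2 ratios carry exact conditional binomial intervals, CPM exact Poisson intervals and shares exact binomial (Clopper-Pearson) intervals. Genes with 0 UMIs were given a floor of 3 and read as a bound. Cells share a library, so no test was run. Named genes were the 12 highest and 12 lowest with at least 10 CPM over both sides and 50 CPM in the higher side, without clone names, up to 3 per list and those the study names. Rrm2, Mcm3, Hells, Irf9 and Ifit2 fall outside that rule and were named after their values were seen. The result for 1 gene is not reported here. Of 180 counted genes with clone names, none passed 2-fold.

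Clustering used 2000 variable genes without mt- genes, 30 principal components, a shared graph of 20 nearest neighbours and Leiden clustering (leidenalg 0.10.2) at a resolution of 0.5. Names came from marker lists, and resolutions of 0.3 and 0.8 were also run. Scrublet in scanpy 1.11.5 called 1 of 4943 cells a doublet, under 0.5%, so it did not work here, and no cell was removed. 4 barcodes of LP4 also occur in LP1, 1 of them over the limit, and 7 occur in Ctrl. Python 3.11.15, numpy 2.4.6, scipy 1.17.1 and edgeR 4.0.16 (TMM only) were used. Gene positions are those of GENCODE vM21 on GRCm38, and 32235 of 32285 genes matched by ID. The ratio and its interval were tested on simulated data. That simulation drew the summed UMIs of each side with no spread between cells, so it cannot check the intervals against such spread.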

Additional observations from a re-analysis of the deposited data

Results flagged for a closer look

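Barcodes that failed the limit on genes take part in no comparison above. In LP4 there were 96, and 68.8% of them (exact interval 58.5 to 77.8) had 5% or more mt- UMIs, against 11.8% (3.30 to 27.5) of the 34 such barcodes in Ctrl and 72.7% (39.0 to 94.0) of the 11 in LP1. In LP4, 57 of the 96 had 50% or more, the median share was 67.2% and the median depth 651 UMIs. Those 57 lay above every one of the 273 cells over the limit, whose highest share was 29.3%.

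The gene set of the Fgf13 subset had a log2 ratio of 0.43 (0.42 to 0.45) between the sides in LP4 and -0.24 (-0.29 to -0.18) in LP1, and the opposite signs were not tested. The macrophage markers summed gave -0.24 (-0.26 to -0.23) in LP4, -0.12 in LP1 and 0.47 (0.35 to 0.58) in Ctrl, which was not tested either. In LP4 the median of the single markers was -0.04, and Lyz2 made up 22964 of the 35475 UMIs of the list over the limit.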

How the results depend on the processing

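No paired analysis was possible because each condition is 1 library and the sides are cells of that library. A limit of 4% removed 22.5% of the barcodes, one of 8% removed 0.278% (14 cells) and one of 10% removed 0.159% (8 cells), against 5.42%. Without limits on UMIs and genes, an alternative chosen after seeing the data, it was 6.73%. Median UMIs outside mt- genes were 11868, 3925.5 and 2568 at 4, 8 and 10%. Genes at least 2-fold higher (7) and lower (23) numbered 3 and 8 at 4%, 905 and 578 at 8%, and 1295 and 482 at 10%, where few cells are left. At least 50 CPM left 0 and 8, and no filter on low values gave 1137 and 430. TMM and the median of ratios gave 2 higher, the mean over cells of the share of UMIs 21, and cells under the limit weighted by depth 17. Clusters A to F alone gave 15 lower. Without the dendritic cell-like cluster of resolution 0.8, also chosen after seeing the data, 6.36% of the cells kept were over the limit and 2 genes were higher. Without the cells at 8% or more, also chosen after seeing the data, 7 were higher and 23 lower.

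At 8%, 56 of 167 named genes and 16 of 41 list medians had another sign than at 5%, and at 10% 46 of 153 and 14 of 38. Among those at least 1.5-fold at the 5% limit, signs turned at 8% for Cd74 (0.43), Cxcl14 (-1.69), Egr1 (3.86), Errfi1 (0.39), Gm47507 (-0.84), Ms4a4a (0.65), Smc2 (-0.42), Stmn1 (-2.24), Thbs1 (0.34) and the medians of cycling (-1.13) and MHC class II genes (0.43). At 10% they turned for Egr1 (4.98), Errfi1 (0.76), Mmp12 (-0.16), Stmn1 (-1.13) and cycling genes (-0.12), and with the mean over cells for Egr1 (1.61), which has 6 UMIs over the limit. The limits of 8% and 10% leave 14 and 8 cells over them, and why the signs turned was not tested. Over 14 settings Lpl ranged from 0.59 to 0.90, Ifit3 from -1.65 to -0.54, the S phase median from 0.04 to 0.69 and the interferon median from -0.38 to -0.17. With no replicate library, the spread between libraries is unknown. Intervals of the ratios cover the counting of UMIs only and leave out the spread between cells.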
